A study of Labrus bergylta with 24 samples.

Results

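In the hindgut of ballan wrasse, 150 transcripts were followed whose level on a diet with both soyasaponin and a prebiotic lay apart from their level on 3 other diets. They came from the 12463 transcripts, of 20751 in the deposited table, that had a mean of at least 50 normalized counts over 24 fish. For each transcript the medians of log2(normalized count + 1) on the 4 diets were sorted, and the transcript was a candidate when the widest gap between neighbouring medians separated the combined diet from the rest. Candidates were ranked by a score, the gap divided by the pooled within-diet standard deviation of the log2 values (20 degrees of freedom). The 75 with the best score and the combined diet highest, and the 75 with the combined diet lowest, are called the higher list and the lower list. The values of all 24 fish chose these transcripts, so their differences between diets are given as a description and carry no test.

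Ballan wrasse (Labrus bergylta) is a stomachless marine fish kept as a cleaner of farmed salmon. The fish received the reference diet for 4 weeks and then 1 of 4 diets for 5 weeks, with 6 fish sequenced per diet. These were the reference diet (control), the reference diet with 0.4% of a commercial prebiotic, with 0.7% soyasaponin, or with both at the same doses (combined). Feeding was in 2 tanks per diet. Which fish shared a tank is not in the labels, so differences between diets and between tanks cannot be told apart, and any p-value measures only the spread between the fish of a diet. Age, sex and strain are not given in the labels.

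Soyasaponins are triterpenoid glycosides of soybean with a fat-soluble and a sugar-bearing part, which lets them act on membranes. In Atlantic salmon they have been studied for their part in the inflammation of the distal intestine that soybean-containing feeds can bring about. Prebiotics are feed components meant to act on the host through its gut microbes. The distal intestine takes up large molecules and holds many immune cells in fish, and a diet with both additions asks whether the response to them together differs from the response to each.

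The deposited table gives transcript identifiers and no gene names, and 0 of 20751 identifiers were found in RefSeq's genes of fLabBer1.1. No function, cell type marker or sequence could therefore be attached to a member. The 2 members with the best score in each list are given by identifier and the others by their rank. The labelled tissue could not be checked against marker genes for the same reason, and a change in the make-up of cells cannot be told apart from a change of RNA level per cell.

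Recovered reads per library ran from 8.55 to 9.50 M (mega) in combined fish, with a median of 9.01 M, and from 8.42 to 12.5 M in the other 18 fish, with a median of 9.49 M. The means were 8.996 M and 9.82 M, and an exact two-sided permutation test over 134596 arrangements gave p = 0.0776. The within-diet correlation of recovered reads with the mean of the higher list was 0.04, and with that of the lower list -0.10 (24 fish).

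The combined diet stood apart in 1611 of the 12463 transcripts, 12.9%, with the combined median highest in 701 and lowest in 910. By the same rule, control stood apart in 1299 transcripts as the highest and 1740 as the lowest diet, prebiotic in 2267 and 1174, and soyasaponin in 595 and 539. In the remaining 3238 the widest gap lay between pairs of diets. The score of the 75th transcript was 1.42 in the higher and 1.33 in the lower list, against 1.73 in both lists of the control diet, 1.70 and 1.66 for prebiotic, and 0.961 and 1.15 for soyasaponin. The thresholds of the combined lists thus lay between those of soyasaponin and those of the control and prebiotic diets.

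The higher list comprised transcripts of moderate abundance with a modest step on the combined diet. The mean over 24 fish ran from 66.1 to 3848 normalized counts, with a median of 453, against a median of 238 over all 12463. The gap between the combined median and the nearest other diet had a median of 0.56 on the log2 scale (1.47-fold) and ran from 0.14 to 1.25. It was under 0.5 in 33 of 75 and at least 1 in 2 of 75. Every member had reads in every fish, the lowest library value being 23 reads. The list took a median of 0.706% of normalized counts in combined fish (range 0.581 to 0.797%). Its share was 0.427% (0.383 to 0.732%) in control, 0.366% (0.318 to 0.423%) in prebiotic and 0.465% (0.452 to 0.690%) in soyasaponin fish (n = 6 each). Such a share depends also on each library's total of normalized counts.

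LABE_00026204-RA had the highest score of the higher list. Its lowest, median and highest normalized counts were 385, 422 and 625 in control fish, 302, 424 and 514 in prebiotic, 438, 474 and 624 in soyasaponin, and 511, 693 and 818 in combined fish. Control replicate 5 and soyasaponin replicates 1 and 4 lay above the lowest combined fish, and so did the highest prebiotic fish. Means were 451 ± 88.4, 417 ± 75.2, 509 ± 77.5 and 683 ± 103 in that order (SD, n = 6 each). The combined diet exceeded the mean of the other 3 by 0.58 on the log2 scale (SE 0.11). This SE and those of the other named transcripts come from the limma fit over all 4 diets described below. The rule chose these transcripts for a wide gap relative to their spread, so the ratio of difference to SE is no test.

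LABE_00035528-RA was second. Its lowest, median and highest values were 907, 1020.3 and 1384 in control, 658, 893 and 1060.2 in prebiotic, 1067, 1132 and 1464 in soyasaponin, and 1176, 1566 and 1777 in combined fish. The combined diet overlapped with control and soyasaponin but not with prebiotic fish, whose highest value lay below the lowest combined one. The combined diet exceeded the mean of the other diets by 0.54 on the log2 scale (SE 0.10).

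In the next 3 members soyasaponin again had the median nearest to the combined one. The third ran from 742 to 962 with a median of 908 normalized counts in combined fish, and had medians of 575 in control, 537 in prebiotic and 649.9 in soyasaponin. The fourth ran from 2544 to 3793 with a median of 3002 in combined fish, against medians of 1924, 1956 and 2209.9. The fifth had the widest gap of the list: 169 to 349 with a median of 277 in combined fish, against 102, 83.1 and 117, a 2.38-fold step from soyasaponin. In all 3 the combined fish overlapped with soyasaponin or control fish and none of the prebiotic fish reached the lowest combined value.

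**Figure D1:**
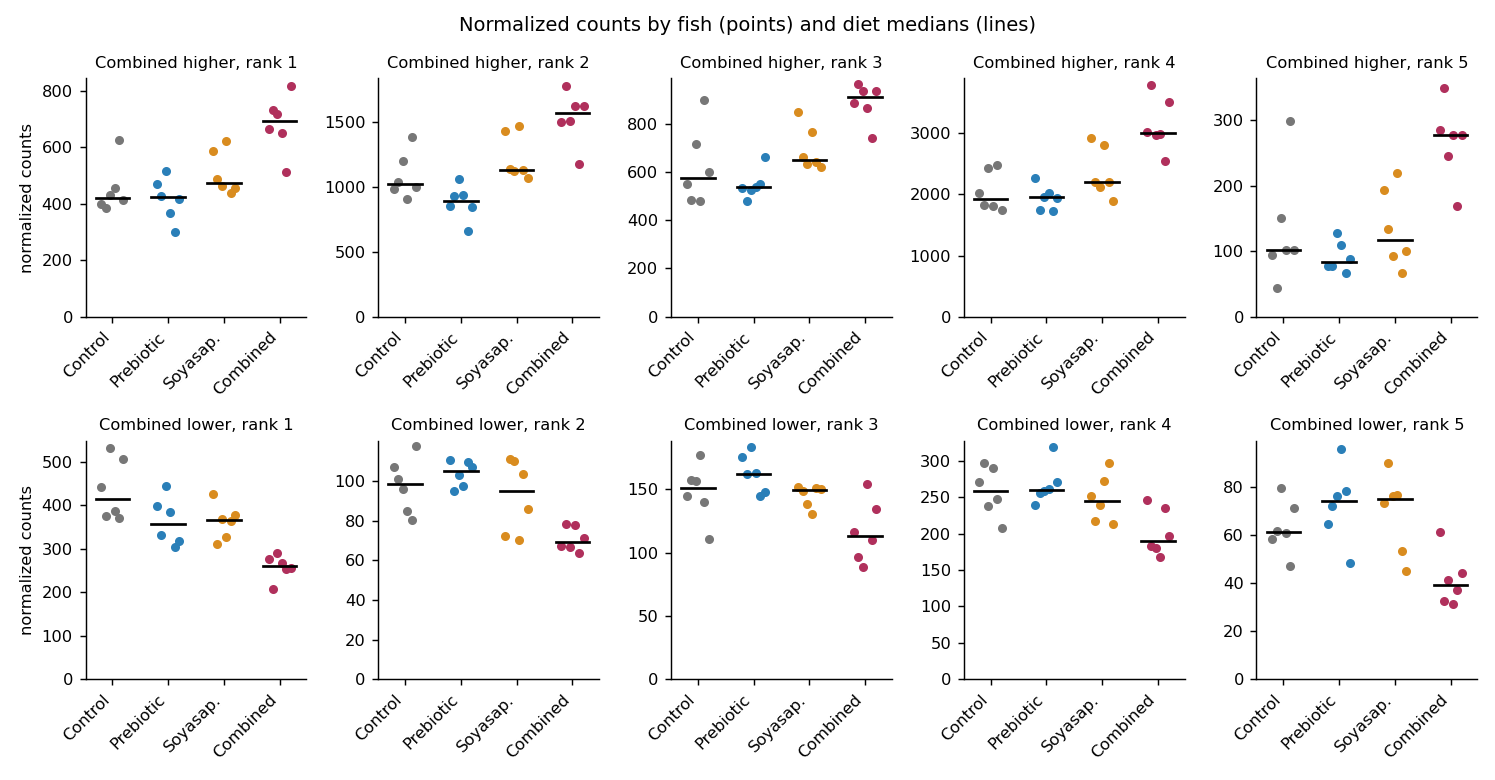
Normalized counts (y axis, from 0) of the 5 members with the best score in each list, by diet (x axis), with 1 point per fish and a line at the median of 6 fish. In the upper row the combined medians, 693 for the first transcript, lie above all others while single control and soyasaponin fish reach into the combined range. In the lower row only the first transcript, at 209 to 289.6 in combined fish, has no overlap.

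At the edge of the higher list, the member of rank 75 had a gap of 0.38 and a pooled SD of 0.27, and the first transcript left out had a gap of 0.30 and an SD of 0.21. The former ran from 1122 to 1451 normalized counts in combined and from 644 to 1489.9 in the other fish, and the latter from 333 to 417 and from 222 to 447. Both overlapped, so the edge of the list separates no distinct class of transcripts.

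Soyasaponin was the diet nearest to the combined one in most of the higher list. It held the next highest median in 65 of 75 members, control in 6 and prebiotic in 4. Soyasaponin was also the closest diet over all 12463 transcripts. There the combined median differed by at least 1 on the log2 scale from soyasaponin in 184, from control in 436 and from prebiotic in 560. The soyasaponin median lay above the control median in 68 of 75 (90.7%), against 55.8% of all 12463 transcripts, while the prebiotic median lay above control in 32 of 75 (42.7%), against 57.5%. In 37 members soyasaponin was above and prebiotic below control, and in 31 both were above. The median difference from control was 0.21 for soyasaponin, -0.04 for prebiotic and 0.75 for the combined diet (log2, 1.68-fold), where all transcripts had 0.03, 0.06 and 0.03. The combined median exceeded the prebiotic median by 0.88 (1.84-fold) and the soyasaponin median by 0.57 (1.48-fold), where all transcripts had -0.04 and 0.00. The rule sorted these same medians and required the combined one to be highest. Where soyasaponin held the next highest median, it lay above control by definition. All transcripts were not chosen in this way, so nothing is read from the distance between the list and all transcripts.

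In the lower list the nearest diet was divided more evenly, with soyasaponin again the most frequent. Members of a list are not independent of each other, and the difference between the lists was not tested. Soyasaponin was nearest to the combined diet in 33 of 75 members, prebiotic in 25 and control in 17. Soyasaponin lay below control in 52 of 75 (69.3%, against 44.2% of all transcripts) and prebiotic in 45 (42.5% of all), and in 39 both lay below. The medians of these differences were near 0, at -0.05 for soyasaponin and -0.06 for prebiotic, against -0.50 for the combined diet (log2). Relative to prebiotic and soyasaponin, the combined medians differed by -0.49 and -0.44. Here too the rule sorted these medians, and a single addition nearest to the combined diet lay below control by definition. Nothing is read from the distance to all transcripts.

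**Figure D2:**
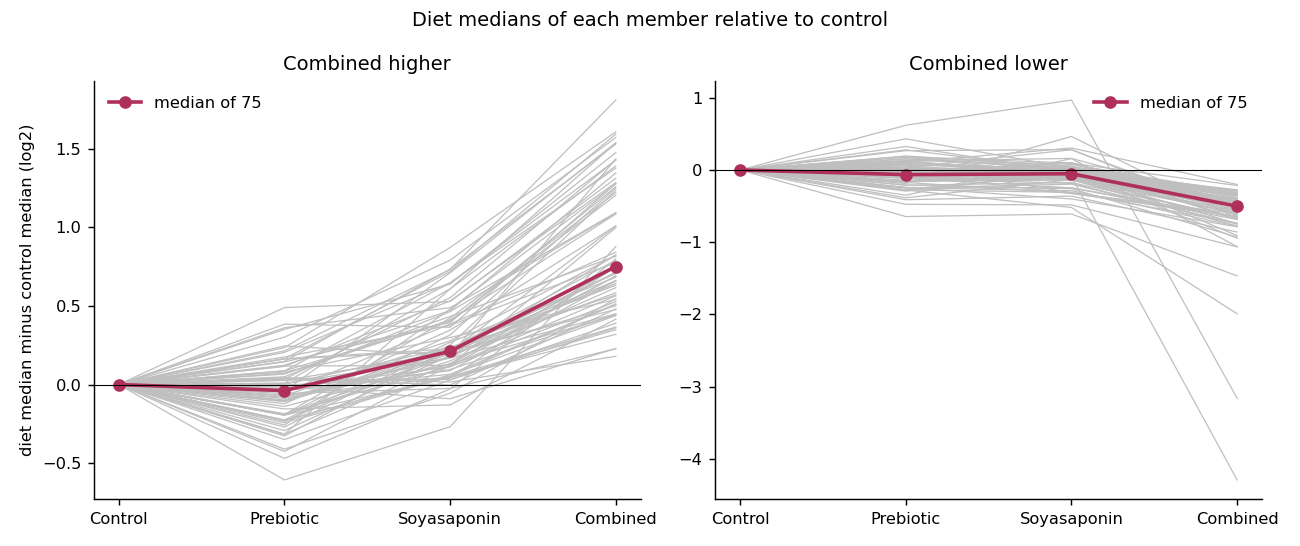
Difference of each diet median from the control median (y axis, log2) for the 75 members of each list (grey lines, 1 per transcript) and their median (red). In the higher list the median line is near 0 for prebiotic (-0.04), 0.21 for soyasaponin and 0.75 for the combined diet. In the lower list both single additions stay near 0 and the combined diet lies at -0.50, with 2 lines below -3.

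A sum of the log2 differences of the 2 single additions from control gives a value that the combined diet would have if they added up. In every member the combined median lay past that value in the direction of its list, an outcome that the rule fixes in advance. Nothing is therefore read from the excess in the lists or from its distance to that of all transcripts. The excess had a median of 0.61 (range 0.10 to 1.75) in the higher and -0.40 (range -4.75 to -0.09) in the lower list, against -0.07 over all 12463 transcripts.

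Transcripts of the lower list had a mean of 52.8 to 19213 normalized counts (median 241). Their gap had a median of 0.43 on the log2 scale (1.34-fold) and ran from 0.20 to 4.198, under 0.5 in 59 of 75 and at least 1 in 3. Their share of normalized counts was 0.536% (median, range 0.464 to 0.556%) in combined fish. It was 0.762% (0.694 to 0.818%) in control, 0.642% (0.455 to 0.703%) in prebiotic and 0.679% (0.649 to 0.732%) in soyasaponin fish. The combined and prebiotic ranges overlapped through a single prebiotic fish at the low end.

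LABE_00013050-RA had the highest score of the lower list and was the only transcript of 12463 in which all 6 combined fish lay below all 18 others. Its lowest, median and highest values were 369.8, 414 and 531 normalized counts in control, 304, 358 and 445 in prebiotic, 312, 366 and 425 in soyasaponin, and 209, 261 and 289.6 in combined fish. Means were 435 ± 69.96, 364 ± 54.8, 362 ± 39.9 and 258 ± 27.95 (SD, n = 6 each). The combined diet differed from the mean of the other 3 by -0.57 on the log2 scale (SE 0.09). The share of transcripts with the combined fish below all others was 0.00802%, and with the combined fish above all others 0 of 12463, 0%. Without single fish these counts were small as well. Transcripts with the combined fish below all others numbered 2 without prebiotic replicate 2 or 5 or combined replicate 1, 3 or 5, and 4 without combined replicate 6. Those with the combined fish above all others numbered 1 without control replicate 5, soyasaponin replicate 4 or 5 or combined replicate 4, 2 without soyasaponin replicate 1 or combined replicate 6, and 4 without combined replicate 5.

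LABE_00047496-RA was second, with 80.2, 98.4 and 117 in control, 94.9, 105 and 111 in prebiotic, 70.4, 94.6 and 111 in soyasaponin and 63.7, 69.2 and 78.3 in combined fish (lowest, median, highest). Soyasaponin replicates 1 and 4, at 72.0 and 70.4, fell within the combined range, and all other fish lay above it. The combined diet differed from the mean of the other diets by -0.45 on the log2 scale (SE 0.10). The next 3 members had combined medians of 113, 189.6 and 39.4 normalized counts, against medians of 149.6 to 162, 245 to 259.8 and 61.6 to 75.1 on the other diets. In these 3 the highest combined fish lay above the lowest values of the other diets, 11, 6 and 6 of the 18 other fish being at or below it.

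The member of rank 75 in the lower list had a gap of 0.35 and an SD of 0.27, and the first transcript left out had 0.36 and 0.27. The former ran from 142 to 289 in combined and from 183 to 318 in the other fish. The latter ran from 62.1 to 105 and from 59.2 to 142.

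The lower list also held members with a wide gap and a wide spread, singled out here after their values were seen together with the most abundant one. The member of rank 43, with a gap of 4.198 and a pooled SD of 2.88, split the fish in 2 ranges, 0 to 4.24 normalized counts in 8 fish and 42.8 to 284 in 16. The 8 fish comprised 4 combined, 2 prebiotic, 1 control and 1 soyasaponin fish. It had 0 reads in 3 fish, and a count of 0 allows up to 3 reads, counting error only. The member of rank 9, with a gap of 3.16, split likewise into 1.13 to 7.82 in 7 fish (4 combined, 2 control, 1 prebiotic) and 49.96 to 187 in 17. In both, 2 of the 6 combined fish lay in the upper range, so the median of the diet rested on 4 fish.

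The member of rank 13 ran from 731 to 1551 normalized counts in 5 combined fish and stood at 4006 in combined replicate 5. Its ranges were 1319.8 to 7850.3 in control, 2153 to 5124 in prebiotic and 1087 to 6167 in soyasaponin fish. The most abundant member of the list, rank 44, had a small step on the combined diet: 14738 to 19592 with a median of 16074, against medians of 20595, 19331 and 19981. Its gap of 0.27 on the log2 scale amounts to 1.203-fold.

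A level per fish was taken for each list as the mean over its 75 members of the log2 value, less the member's mean in the 18 fish of the other diets. For the higher list it was 0.78, 0.91, 0.84, 0.56, 0.46 and 0.63 in combined replicates 1 to 6. It ranged from -0.35 to 0.06 in prebiotic fish, with no overlap. The members were chosen from the values of these same fish, which favours such a separation in the averaged level. Control fish ranged from -0.37 to -0.01 apart from replicate 5 at 0.64, and soyasaponin fish from -0.03 to 0.09 apart from replicates 1 and 4 at 0.54 and 0.57. Those 3 fish lay within the combined range, above 1 or more of combined replicates 4, 5 and 6.

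**Figure D3:**
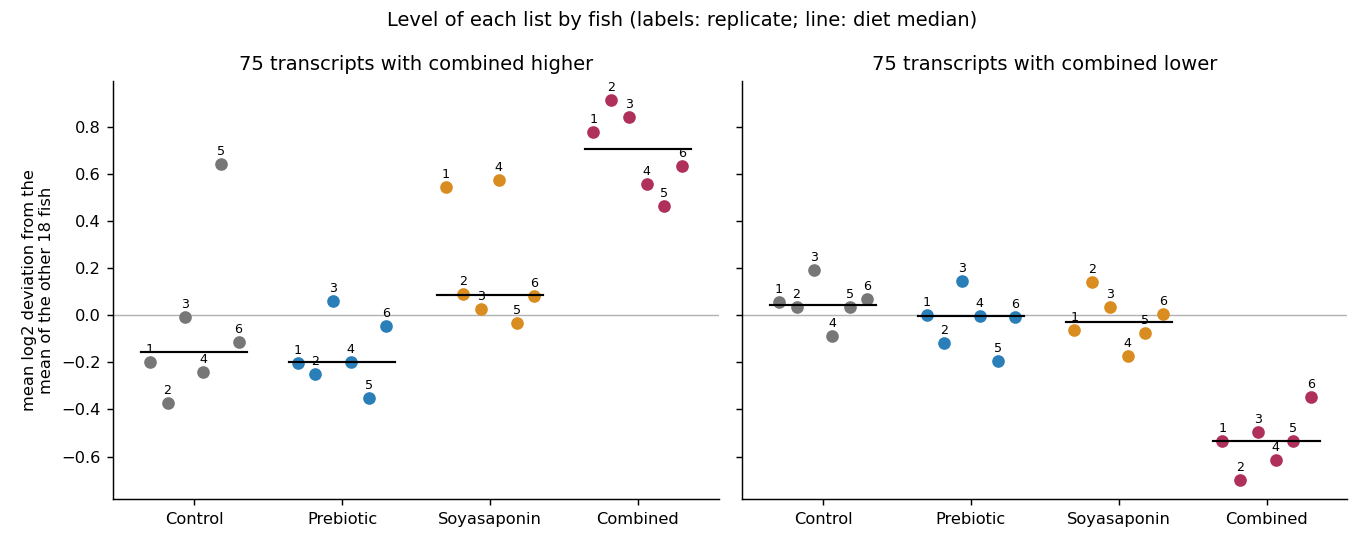
Level of each list in each fish (y axis, mean log2 deviation from the mean of the other 18 fish) by diet (x axis), with replicate numbers beside the points and lines at diet medians. In the higher list control replicate 5 (0.64) and soyasaponin replicates 1 and 4 (0.54 and 0.57) lie among the combined fish (0.46 to 0.91). In the lower list the combined fish (-0.70 to -0.35) lie below all others, which the choice of members favours.

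The same 3 fish overlapped with the combined fish in more single transcripts than any other fish did. Control replicate 5 reached at least the lowest combined value in 62 of 75 higher members, soyasaponin replicate 1 in 66 and soyasaponin replicate 4 in 60. The other 15 fish did so in 5 to 17 members each, so the overlap was not confined to those 3. Control replicate 5 lay at or above the combined median in 33 members, soyasaponin replicate 4 in 22 and soyasaponin replicate 1 in 10, and each of the other 15 fish in 0 or 1. Accordingly the combined fish did not overlap with prebiotic fish in 49 of 75 members (2.75% of all transcripts were so), with control fish in 7 (1.74%) and with soyasaponin fish in 2 (0.0802%). Of the lower list, 14 members did not overlap with control (1.64%), 5 with prebiotic (1.003%) and 4 with soyasaponin fish (0.201%). The rule used these values, and nothing is read from the counts.

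Combined replicates 1, 2 and 3 had a higher level of the higher list than replicates 4, 5 and 6, with no overlap (0.78 to 0.91 against 0.46 to 0.63). The titles give the former the fish numbers 13, 15 and 16 and the latter 39, 40 and 42, and the labels say nothing of what the numbers stand for. The numbers of each other diet were likewise divided into runs of the 3 lowest and the 3 highest, though in soyasaponin fish no wide step marks that division. In these diets the levels of the runs overlapped. The levels were -0.37 to -0.01 and -0.24 to 0.64 in control (62 to 65 and 75 to 78), and -0.35 to -0.05 and -0.25 to 0.06 in prebiotic (7 to 11 and 20 to 24). In soyasaponin fish (27 to 29 and 32 to 36) they were 0.03 to 0.54 and -0.03 to 0.57. With 3 fish on each side a full separation can readily arise by chance, and the split was looked at in every diet. The difference between the runs was not tested, and nothing is read from its presence in the combined diet alone. Combined replicate 2 was the highest of all 24 fish in 27 of 75 members, replicate 1 in 14 and replicate 3 in 13, against 3, 1 and 4 for replicates 4, 5 and 6. The same rule with only replicates 1 to 3 as the combined diet chose 43 of the 75 again, and with only replicates 4 to 6 it chose 23. All 75 kept the combined diet apart as the highest with the former and 50 with the latter. The same fish had chosen the list, and the higher level in replicates 1 to 3 favours a larger number chosen again from them. Nothing is therefore read from the difference between these numbers.

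In the lower list the level was -0.53, -0.70, -0.49, -0.62, -0.53 and -0.35 in combined replicates 1 to 6, and -0.19 to 0.19 in the 18 other fish, with no overlap. The choice of members favours that separation, and nothing is read from it. In this list the levels of the runs of fish numbers overlapped, with -0.70 to -0.49 and -0.62 to -0.35. Prebiotic replicate 5 (-0.19) and soyasaponin replicate 4 (-0.17) came closest, with values at or below the highest combined fish in 53 and 47 of 75 members. With combined replicates 1 to 3 alone 32 of the 75 were chosen again, and with replicates 4 to 6 alone 23. The combined diet remained apart as the lowest in 68 and 65 of the 75. The same fish had chosen this list as well, and nothing is read from these numbers.

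**Figure D4:**
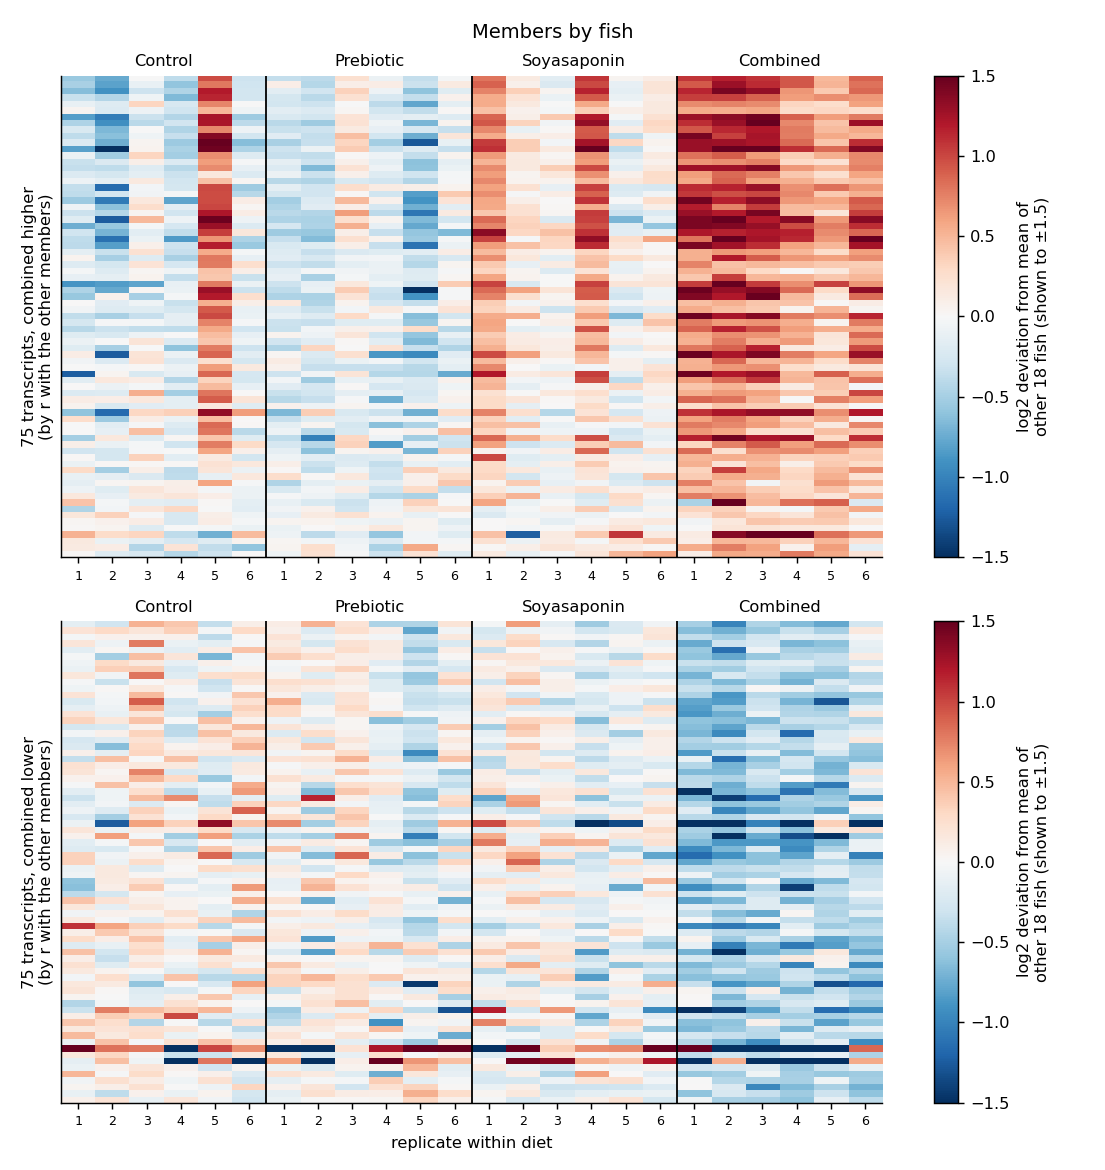
Log2 deviation of each member from its mean in the 18 fish of the other diets (colour, shown to ±1.5), with 75 transcripts per panel (rows, ordered by their within-diet correlation with the other members) and 24 fish (columns, by diet and replicate). In the upper panel control replicate 5 and soyasaponin replicates 1 and 4 are red over most of the rows that are red in combined fish, with list levels of 0.64, 0.54 and 0.57. The lower panel shows no other column like the combined ones, which the choice of members favours.

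The members of the higher list varied together between fish of the same diet. The rule used no relation between transcripts directly. It did choose all of them for the same kind of profile over these same fish, which can favour shared deviations. After each diet's mean was subtracted, pairs of its members had a median correlation of 0.55 over 24 fish (5th to 95th percentile -0.24 to 0.87, 2775 pairs), and 29.4% of pairs exceeded 0.7. In the lower list the median was 0.10 (-0.31 to 0.53) and 0.613% exceeded 0.7, and over all pairs of the 12463 transcripts it was -0.01 (-0.49 to 0.53) with 1.44% above 0.7. The lists chosen by the same rule for the other diets had medians of 0.03 to 0.32. These are descriptions over the same 24 libraries that chose the lists, and how far the choice raised the correlations was not tested. The difference between lists was not tested.

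**Figure D5:**
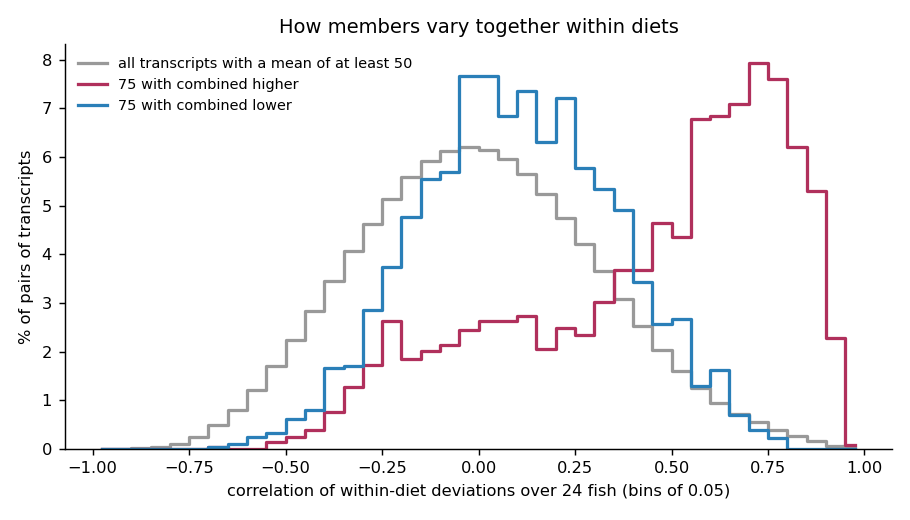
Share of pairs of transcripts (y axis, percent) by the correlation of their within-diet deviations over 24 fish (x axis, bins of 0.05). Pairs of the higher list (red) lie to the right of all pairs (grey) with a median of 0.55, which the choice of members can favour. Pairs of the lower list (blue) have a median of 0.10.

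Within the 6 combined fish alone the median pair correlation of the higher list was 0.45, and within the 18 fish of the other diets 0.58. Without control replicate 5 it was 0.41, and without any other single fish 0.52 to 0.57. The list mean had within-diet correlations of -0.05 with the first and 0.31 with the second principal component of all libraries, of 0.22 with the log2 size factor and of -0.16 with the mean of the lower list (24 fish each). With the slope on the first component removed the median pair correlation was 0.56. The mean of the lower list had a within-diet correlation of -0.48 with the first component.

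Of the 75 higher members, 47 had a within-diet correlation above 0.7 with the mean of the other members, 14 of them above 0.9, and 7 were below 0. The 47 followers had gaps of 0.31 to 1.25 (median 0.73), and soyasaponin was the nearest diet in 46 of them. The other 28 had gaps of 0.14 to 0.88 (median 0.43), smaller pooled SDs (median 0.26 against 0.41), and soyasaponin nearest in 19. The score, the gap over the SD, lay between 1.42 and 2.24 in this list. The rule thus ties a smaller SD to a smaller gap, and these are not 2 separate traits. The median difference between soyasaponin and control was 0.36 in the followers and 0.08 in the others (log2). In the lower list 0 of 75 exceeded 0.7, and 21 exceeded 0.5. The split at 0.7 was made after the values were seen.

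The members of rank 5, 34 and 48 in the higher list, picked after their values were seen, had identifier numbers within 3 of each other, and no other pair of members of a list did. Their means were 132 ± 88.3, 91.5 ± 23.3, 134 ± 60.4 and 267 ± 59.0 normalized counts for rank 5 in control, prebiotic, soyasaponin and combined fish (SD, n = 6 each). For rank 34 they were 210.4 ± 136, 180.1 ± 58.5, 252 ± 93.2 and 447 ± 75.8, and for rank 48 they were 676 ± 427, 535 ± 196, 847 ± 272 and 1393 ± 376. All 3 had their highest control value in replicate 5. Whether these are neighbouring or near-identical genes that share reads is not given in the sources used here.

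Transcripts outside the list followed it as well. Of 12388 non-members, 152 (1.23%) had a within-diet correlation above 0.7 with the mean of the higher list. The combined median was the highest of the 4 in 146 of these (96.1%), against 21.6% of all non-members, and the prebiotic median was the lowest in 113. Their combined medians exceeded control by 0.53, prebiotic by 0.65 and soyasaponin by 0.24 (medians, log2), and in 41 of them the combined diet stood apart by the rule. They were measured in the same fish as the list and follow the same differences between fish, so they are not separate evidence. Another 60 non-members had a correlation below -0.7, and these were no mirror image: the combined median was the lowest in 11 of them, the control median in 41, and the prebiotic median was the highest in 43.

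With limma on log2(normalized count + 1) of all 17056 transcripts with a mean of at least 10, and Benjamini-Hochberg adjustment over all of them, the combined diet against soyasaponin gave 0 calls in either direction at an adjusted p under 0.05. The background was thus 0% for higher and 0% for lower transcripts, and 0 of 150 members were called. The smallest adjusted p of any transcript was 0.276, 933 transcripts had an unadjusted p under 0.05, edgeR on recovered reads called 0, and DESeq2 called 7 (2 higher, 5 lower, with 2 members of the lower list among them). Among those 933 of 17056 transcripts with an unadjusted p under 0.05, limma had 59 higher and 60 lower members in the direction of their list. The choice of members favours these numbers, and nothing is read from them. Without combined replicate 6 limma made 1 call, a lower member.

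The interaction of the additions, which asks whether the combined diet departs from their sum, likewise gave 0 calls in limma, 0% in either direction, and 0 of 150 members. It had a smallest adjusted p of 0.128 and 2174 transcripts with an unadjusted p under 0.05. edgeR called 0 and DESeq2 117, with 1 higher and 1 lower member among them, and limma made 1 call without prebiotic replicate 2.

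The other contrasts of the combined diet gave calls in limma. Against the mean of the other 3 diets, 125 transcripts were higher (0.733% of those tested) and 32 lower (0.188%), with 51 of 75 higher and 16 of 75 lower members among them. Against control, 319 were higher (1.87%) and 234 lower (1.37%), with 41 and 24 members. Against prebiotic, 465 were higher (2.73%) and 184 lower (1.08%), with 62 and 17 members. The split of calls against prebiotic was 641 higher and 98 lower after quantile normalization, 633 and 143 in edgeR and 731 and 508 in DESeq2. Against the mean of the other diets it was 210 and 22 in edgeR, and against control 155 and 63 with the size factor as covariate. Over the alternative settings with all fish, the higher members called numbered 27 (edgeR) to 62 (array weights) against control, 51 to 67 against prebiotic and 42 to 67 against the mean of the other diets. The lower members called numbered 7 (size factor as covariate) to 52 (array weights), 7 to 29 and 11 to 48. The totals over all transcripts differed between these settings too. Against control, edgeR called 489 of 17056 transcripts and limma with array weights 1708. The rule used these contrasts and nothing is read from the members' counts.

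The counts in these 3 contrasts moved by over 1.5 times with several single fish left out, apart from the higher members called against prebiotic. Calls against control numbered 264, 199, 207, 322 and 361 without control replicates 1, 2, 3, 4 and 6, and 19, 253 and 247 without combined replicates 2, 3 and 4. Those against prebiotic numbered 420, 386 and 424 without prebiotic replicates 2, 4 and 5, and 266 and 348 without combined replicates 2 and 3. Those against the mean of the other 3 diets numbered 60, 0, 3, 43 and 103 without combined replicates 1 to 5, 92 and 414 without control replicates 2 and 5, 98 without prebiotic replicate 1, and 239 and 73 without soyasaponin replicates 1 and 3. At 0 calls without combined replicate 2, 1681 transcripts had an unadjusted p under 0.05 in limma.

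The members called moved with the totals over all 17056 transcripts tested. Over single omissions those totals ran from 0 to 414 for the mean of the other 3 diets. They ran from 19 to 820 against control and from 266 to 781 against prebiotic. The rule used these contrasts, so the members' counts are given as a description and nothing is read from them. For the mean of the other 3 diets, those of the higher list were 0 without combined replicate 2 or 3, 20 and 21 without combined replicates 1 and 4, 28 without soyasaponin replicate 3, 32 without prebiotic replicate 1 and 33 without control replicate 2. For the lower list they were 0, 1, 4, 6 and 9 without combined replicates 2, 3, 4, 1 and 5. They were 7 without soyasaponin replicate 3, 9 without control replicate 2 or prebiotic replicate 1, 10 without prebiotic replicate 2, 30 without prebiotic replicate 5 and 34 without control replicate 5. Against control, the higher list had 2 and 24 without combined replicates 2 and 3, and 23, 20 and 26 without control replicates 1, 2 and 4. The lower list had 1, 12 and 8 without combined replicates 2, 3 and 4, and 12, 10, 6 and 13 without control replicates 1, 2, 3 and 6. Against prebiotic, the lower list had 4 and 9 without combined replicates 2 and 3, and 10, 11, 8, 7 and 11 without prebiotic replicates 1, 2, 3, 4 and 6, while the number of higher members called ran from 44 to 64 over all omissions. Calls in all 3 contrasts were fewest without combined replicate 2, the fish with the highest level of the higher list and the lowest level of the lower list.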

How the data were processed

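RNA from the hindgut of 24 fish was sequenced as stranded paired-end mRNA libraries with 14.2 ± 1.4 M (mega) reads on average, per the labels' protocols. The deposited table holds a signal per transcript, made from read counts scaled by 1 factor for each library. cutadapt, TopHat2, featureCounts, Subread and DESeq2 are named in the submitters' processing notes without role or version. Genome build and annotation: not given in the sources used here. In each library, all values were whole multiples of the smallest non-zero one, within 1e-06 (100% of 498024 values), so reads were recovered. Their totals give depth only over listed transcripts, none of which had fewer than 51 reads in all.

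Contrasts were fitted over the 4 diets with limma 3.58.1 (R 4.3.3, intensity trend, pseudocount 1, mean of at least 10), two-sided. The pseudocount understates the change of low transcripts. On recovered reads, the quasi-likelihood test of edgeR 4.0.16 with TMM, and DESeq2 1.42.0, served as alternatives, beside other pseudocounts, filters, scalings, array weights and the omission of single fish. Methods were tested on simulated data. The transcripts and lists were chosen with earlier results of these data known. Named transcripts are the 2 best scores per list. Replicates were numbered in record order and pair no fish. Figures used matplotlib 3.10.9.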

Additional observations from a re-analysis of the deposited data

Results flagged for a closer look

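In groups of 6 fish, a value was looked at again when its distance to the nearest other fish was a large share of the group's range, above Dixon's 95% limit. Of 52 groups examined, 2 met this, where 1 in 20 would give 2.6. The groups share fish and most belong to members chosen partly for a small spread, so that rate is only a rough guide. Control replicate 5 stood at 625 normalized counts of LABE_00026204-RA against 385 to 455 in the other 5 control fish (ratio 0.709). The same fish had a level of the higher list of 0.64 against -0.37 to -0.01 (ratio 0.639). That list includes the flagged transcript, so the 2 flags are not separate observations.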

How the results depend on the processing

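No paired analysis was possible because the labels give no replicate numbers shared between diets. Of the 75 higher members, 45 were chosen again with diet means in place of medians, 43 with combined replicates 1 to 3 alone and 23 with replicates 4 to 6 alone. The other planned settings kept 55 to 75. Of the 75 lower members, 41 were chosen again with means, 49 after quantile normalization, 48 with the slope on the size factor removed, and 32 and 23 with combined replicates 1 to 3 and 4 to 6 alone. Leaving out single fish kept 52 to 71 higher and 44 to 67 lower members. Calls against control were 332 after quantile normalization, 1708 with array weights, 218 with the size factor as covariate and 1247 in DESeq2, and 19 to 820 over single omissions. Against prebiotic they were 338 with the size factor and 1239 in DESeq2, and 266 to 781. Against the mean of the other diets they were 236 at a mean of at least 50, 516 with array weights, 497 in DESeq2, and 0 to 414. Against soyasaponin DESeq2 gave 7 calls and for the interaction 117, while limma gave 0 to 1 over single omissions in each. All calls over omissions are from limma, and DESeq2 was not refitted without single fish. The cause of these differences was not tested. edgeR called 489, 776, 232, 0 and 0 in that order. In the 5 best members of each list, the difference between the combined and the nearest diet kept its sign in every setting run. These members were chosen for that difference in the same fish, which favours a stable sign. The alternatives for pair correlations and for the members called were added after seeing the data.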
